A study of Lactuca sativa with 18 samples.

Results

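In romaine lettuce midribs, 100 genes were selected because their transcript levels moved in opposite directions in 2 cultivars during cold storage: lower after storage in Parris Island Cos (PC) and higher after storage in Clemente (CL). The members came from 46150 distinct GeneIDs. For each GeneID a score was taken on the log2(CPM + 1) scale, where CPM is the usual depth-scaled count, here on the column total. The score was the smaller of 2 gaps, that between the lowest PC day 0 and the highest PC day 3 library and that between the lowest CL day 3 and the highest CL day 0 library, and the 100 highest scores were kept. Selection therefore read all 8 PC and CL libraries, and every PC and CL value below is a description with no test. The Tall Guzmaine (TG) libraries were not read by the selection, and the change between day 3 and day 0 in TG is the only comparison tested here.

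The samples were leaf midribs of 3 cultivars of Lactuca sativa, cut by hand into short pieces and kept cold until frozen. TG is labelled as browning strongly, PC as browning little, and CL, which was selected from a cross of these 2, as intermediate. The groups used were TG on day 3 and day 0, PC on day 3 and day 0, and CL on day 3 and day 0, with 2 libraries each. All groups had been harvested, cooled, trucked and held cold before cutting, so day 0 is cut tissue that had already been stored as whole heads, and no uncut midribs were sampled. Since no label ties the replicates to separate heads or plants, each p-value reflects library-to-library spread alone, which may be technical. That spread was estimated over all 6 groups together, so the PC and CL libraries read by the selection enter the error of the TG test. Cutting and cold storage cannot be told apart in this design.

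Browning of cut lettuce is known to follow wounding, when phenolic compounds made by the phenylpropanoid pathway meet polyphenol oxidases and peroxidases and are turned into brown pigments. The midrib holds large water-rich parenchyma cells, vascular bundles and latex-bearing cells. In bulk tissue of this kind, fewer cells of a type and less RNA per cell cannot be told apart. Cutting and cold are each known to change transcript levels widely in such tissue within hours to days. The annotation used here gives gene identifiers and gene types with no product names, so no function is attached to any member, and neither the tissue markers nor the pathway lists could be looked up.

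Of the 100 members, 99 were found in the RefSeq gene table of assembly Lsat_Salinas_v11. There, 93 are protein-coding genes, 3 are long noncoding RNAs (LOC111913212, LOC111884087 and LOC111878433) and 3 are pseudogenes (LOC111884007, LOC111917404 and LOC111914150). GeneID_111902538 is not in that table. In the gene order of the table, 8 of 99 placed members had another member within 20 intervening genes. The same count was not made for other genes, so it is a description only. The closest pair was LOC111876220 and LOC111876217, with 2 genes between them, followed by LOC111884087 and LOC111884070 with 9, LOC111899675 and LOC111899667 with 13, and LOC111892689 and LOC111892698 with 15. The median gene span was 2600 bp, introns included, with a range of 780 to 17207 bp.

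The 12 libraries held 35603537 to 59153901 counts. Genes of the plastid in the table took at most 0.0002% of a library, and genes typed as rRNA took 0.388% to 1.29%, with the highest share in replicate 2 of PC day 3. TMM scaling factors, which correct for composition, were 0.780 and 0.794 in CL day 0, against 0.977 to 1.17 in the other 10 libraries. Levels below are CPM on the TMM-adjusted library size. The mean level of a member over the 12 libraries ran from 2.66 to 1287 CPM with a median of 15.5 CPM, against a median of 8.33 CPM over the 21757 genes that passed the filter on low counts. All 100 members passed that filter, which the high PC day 0 libraries alone would have secured.

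The scores ran from 2.34 to 0.863, with a median of 1.01. Just inside the limit stood LOC111900428 and LOC111921021, both at 0.866, and GeneID_111902538 at 0.863. Just outside stood LOC111891041 at 0.861, LOC111913385 at 0.858 and LOC111888054 at 0.856, so the limit falls in a continuous range. In all, 2757 GeneIDs had a score above 0, and 871 had a score above 0 for the mirror-image pattern, higher after storage in PC and lower in CL. On the TMM-adjusted scale these numbers were 1655 and 1605, so the imbalance between the patterns rests on the scale. The 100 members all kept a score above 0 on that scale, the lowest being 0.58.

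Levels of the members differed most between PC and CL on day 0 and lay close together on day 3. The median member stood at 10.6 and 11.9 CPM in the PC day 3 libraries, against 34.5 and 53.1 CPM in the PC day 0 libraries. In CL it stood at 10.1 and 11.7 CPM on day 3, against 4.27 and 3.46 CPM on day 0. In TG it stood at 12.1 and 13 CPM on day 3, against 11.9 and 12.2 CPM on day 0. The 6 day 3 libraries and the 2 TG day 0 libraries thus held medians of 10.1 to 13 CPM, with PC day 0 above and CL day 0 below that range.

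**Figure D1:**
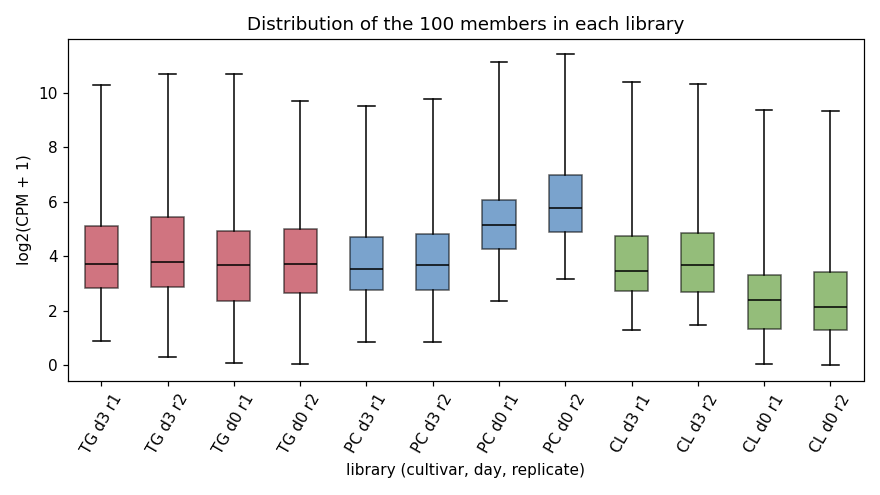
Distribution of log2(CPM + 1) over the 100 members in each of the 12 libraries (d3, day 3; d0, day 0; r, replicate); boxes span the quartiles, lines mark medians and whiskers reach the lowest and highest member. Medians are 34.5 and 53.1 CPM in PC day 0 and 4.27 and 3.46 CPM in CL day 0, and 10.1 to 13 CPM in the other 8 libraries.

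Summed over all members, the level was 3546 and 3844 CPM in PC on day 3, against 10500.5 and 15247 CPM in PC on day 0. In CL the sum was 4332 and 4550 CPM on day 3, against 1970 and 1950 CPM on day 0. In TG it was 4840 and 5246 CPM on day 3, against 5163 and 3943 CPM on day 0. The day 3 and day 0 sums do not overlap in PC or in CL, which the selection fixes, and they overlap in TG. A pair of abundant members, LOC111890968 and LOC111914201, made up 32.5% to 63.5% of these sums. Without this pair the sums were 2461 and 2713 CPM on day 3 and 2709 and 2504 CPM on day 0 in TG. They were 2113 and 2224 CPM on day 3 and 6823 and 10289 CPM on day 0 in PC, and 1996 and 2211 CPM on day 3 and 758.3 and 711.8 CPM on day 0 in CL.

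LOC111890968 was the more abundant of the pair. It stood at 712.3 and 868.3 CPM in PC on day 3, against 2231 and 2707 CPM on day 0, and at 1006 and 1283 CPM in CL on day 3, against 665.4 and 642.6 CPM on day 0. LOC111914201 stood at 720.9 and 751.9 CPM in PC on day 3, against 1447 and 2250 CPM on day 0. In CL it stood at 1329 and 1055 CPM on day 3, against 546.1 and 595.7 CPM on day 0. In TG, LOC111890968 stood at 1236 and 1634 CPM on day 3, against 1629 and 830.5 CPM on day 0, and LOC111914201 at 1142 and 899.6 CPM on day 3, against 825.2 and 608.8 CPM on day 0. Neither was called in TG (edgeR quasi-likelihood test, adjusted p = 0.626 and 0.165). These 2 genes show that the pattern is not limited to weakly expressed members.

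**Figure D2:**
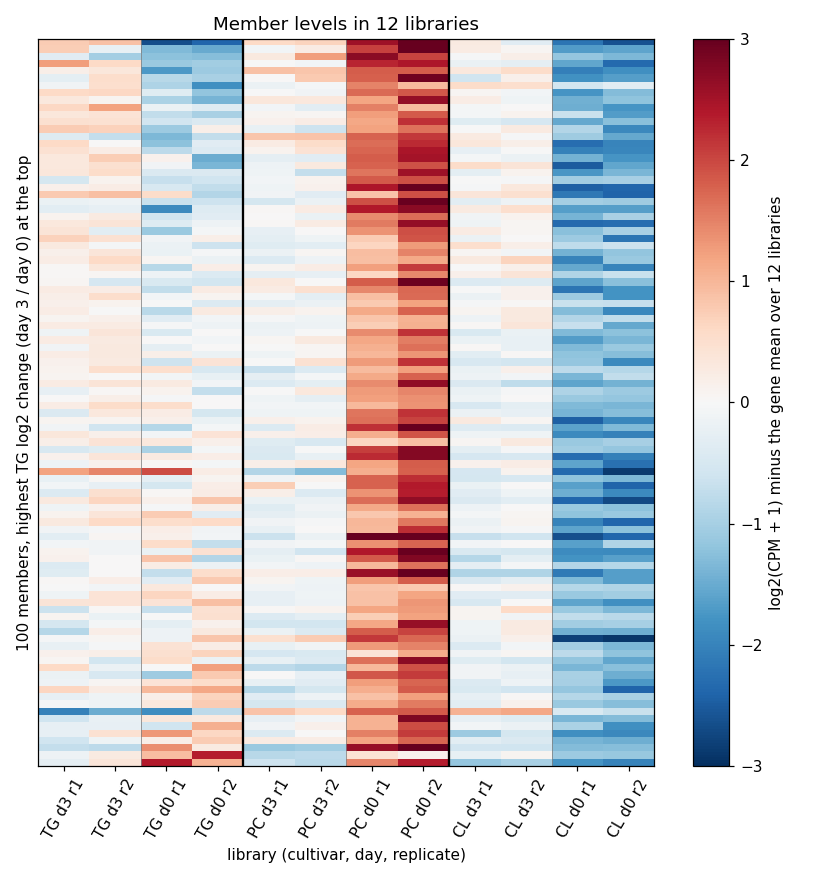
Level of each of the 100 members in each of the 12 libraries, as log2(CPM + 1) minus the gene's mean over the libraries (colour limited to -3 to 3); members are ordered by their TG change between day 3 and day 0. PC day 0 holds the highest and CL day 0 the lowest values for most members, while the day 3 libraries of all 3 cultivars lie near the gene means.

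In PC the fitted log2 change between day 3 and day 0 ran from -4.21 to -1.0 over the members, with a median of -1.77, a 3.41-fold lower level. It was at least 4-fold for 37 members. In CL it ran from 0.71 to 5.06 with a median of 1.55, a 2.93-fold higher level, and it was at least 4-fold for 31 members. Over all 21757 genes tested the median was 0.03 in PC and 0.04 in CL. These changes chose the members and carry no test.

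The selection sets the PC and CL levels within each cultivar, but it does not require the 2 cultivars to meet after storage. On day 3 the log2 difference PC minus CL had a median of 0.01 over the members, with PC higher in 50 of 100 and 99 within 2-fold. On day 0 its median was 3.13, PC was higher in all 100 and none lay within 2-fold. Over all genes tested, 96.5% lay within 2-fold on day 3 and 69.2% on day 0, so the closeness on day 3 is that of genes in general. The median ratio of the highest to the lowest library was 1.72 on day 3 over the members, against 1.77 over all genes with no library at 0. On day 0 it was 19.4 over the 98 members with no library at 0, against 3.25 over all such genes. The same closeness was seen among the 2020 tested genes with PC at least 1.38 log2 units above CL on day 0, the smallest such gap of a member: their median gap was 1.97 on day 0, and the median absolute difference was 0.30 on day 3.

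**Figure D3:**
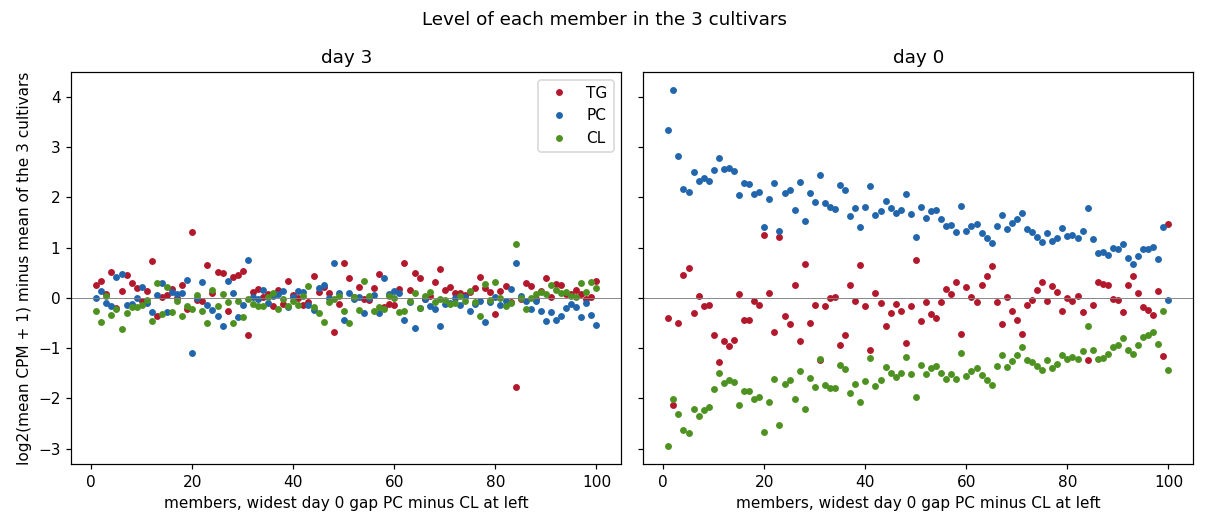
Level of each member in TG, PC and CL on day 3 (left) and day 0 (right), as log2(mean CPM + 1) minus the mean of the 3 cultivars; members run from the widest to the narrowest day 0 gap between PC and CL in both panels. On day 0 PC lies above CL for all 100 members with TG mostly between them. On day 3 the points of the 3 cultivars lie close together for most members. There TG is within 2-fold of PC in 91 and of CL in 96, against 96.2% and 96.3% of all genes tested.

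TG was not read by the selection, and on day 0 it mostly stood between the other cultivars. Both TG day 0 libraries lay between the CL and the PC day 0 libraries for 80 members, against 26.8% of the 8194 tested genes with PC day 0 above CL day 0. A wider gap leaves more room: of the 2020 genes with a gap of at least 1.38, the share was 53.0%. The median gap of those genes was 1.97, against 3.13 for the members. The members thus still had more room, and the 2 shares are not matched on the gap. TG overlapped one of the other cultivars in 17 members, lay below both CL libraries in 2 and above both PC libraries in 1. On a scale with CL day 0 at 0 and PC day 0 at 1, the TG day 0 level had a median position of 0.44, with quartiles of 0.30 and 0.57. Since the selection set both ends of this scale, the positions are a description.

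The mean TG level on day 0 was a median of 3.18 times that of CL, and that of PC was 3.63 times that of TG. On day 3 the median ratio was 1.17 for TG over PC and 1.14 for TG over CL. The log2 difference TG minus PC on day 3 was positive in 71 of 100 members, with a median of 0.20, and TG minus CL was positive in 70, with a median of 0.15. Over all 21757 genes tested both medians were 0, and the differences were positive in 10549 and 10690 genes. TG was within 2-fold of PC on day 3 in 91 members, against 96.2% of all genes tested. It was within 2-fold of CL in 96, against 96.3%. By this measure TG was no closer to PC or CL at the members than at genes in general.

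Both PC day 0 libraries exceeded the other 10 libraries in 90 members, against 14.1% of all genes tested. Both CL day 0 libraries lay below the other 10 in 88 members, against 11.6%, and 78 members had both features, against 2.87%. The selection read the PC and CL libraries and favours these features. The gap between the member counts and the shares of all genes is therefore no result about the members. LOC111896520 was among the exceptions. It stood in TG at 8.95 and 12.2 CPM on day 3 and at 19.9 and 55.0 CPM on day 0, above the 13.9 and 10.9 CPM of PC day 0. LOC111914356, named after its values were seen, was low in TG throughout: it stood in TG at 1.35 and 2.45 CPM on day 3 and 1.62 and 4.59 CPM on day 0. Its levels were 16.5 and 13.5 CPM in PC on day 3, against 31.5 and 33.2 CPM on day 0, and 18.8 and 20.5 CPM in CL on day 3, against 6.02 and 5.08 CPM on day 0.

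The 2 PC day 0 libraries differed from each other at these genes. Replicate 2 exceeded replicate 1 in 93 of 100 members, by a median of 0.57 on the log2 scale, while over all genes tested it was higher in 46.7% with a median difference of 0. In the other 5 groups replicate 2 was higher in 45 to 68 members. Regardless of direction, the median absolute difference over the members was 0.57 in PC day 0, against 0.26 over all genes. It was 0.44 in TG day 0, against 0.25. In the remaining groups it was 0.18 to 0.25 over the members, against 0.15 to 0.23 over all genes. The score reads the lower of the 2 PC day 0 libraries, which was replicate 1 for most members. Without PC day 0 replicate 1 only 52 of the members were still among the 100 highest scores. Without PC day 0 replicate 2, which left the score of most members unchanged, 96 were. Any further part of this library difference in the selection was not tested.

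The 10 highest scores give the pattern at single genes. LOC111910273 had the highest score. It stood at 8.59 and 10.4 CPM in PC on day 3, against 55.3 and 82.8 CPM on day 0, and at 9.21 and 12.1 CPM in CL on day 3, against 0.918 and 1.03 CPM on day 0. In TG it stood at 10.6 and 11.3 CPM on day 3, against 6.59 and 5.28 CPM on day 0. After storage the 6 libraries lay between 8.59 and 12.1 CPM, although on day 0 the PC libraries stood far above those of TG and CL.

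LOC111888787 stood at 55.5 and 64.4 CPM in PC on day 3, against 291.7 and 360.9 CPM on day 0. In CL it stood at 65.0 and 77.6 CPM on day 3, against 16.5 and 16.4 CPM on day 0. The TG libraries stood at 43.6 and 45.1 CPM on day 3, against 13.6 and 40.8 CPM on day 0. In TG the day 0 libraries lay far apart, one of them below the CL level, and the log2 change of 0.71 (SE 0.38) did not pass (edgeR quasi-likelihood test, adjusted p = 0.202). That value rests on single libraries: it was 0.12 when TG day 0 replicate 1 was left out, and 1.71 with a call (adjusted p = 0.000957) when replicate 2 was.

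LOC111910620 stood at 14.1 and 10.3 CPM in PC on day 3, against 58.1 and 95.2 CPM on day 0, and at 18.3 and 28.4 CPM in CL on day 3, against 4.52 and 2.76 CPM on day 0. TG held 62.9 and 75.1 CPM on day 3, against 106.3 and 31.4 CPM on day 0, so that after storage TG stood above both other cultivars. LOC111906809 had the steepest PC change of all members, 18.5-fold lower: it stood at 34.9 and 49.1 CPM in PC on day 3, against 485.3 and 1064 CPM on day 0. In CL it stood at 33.9 and 36.5 CPM on day 3, against 8.02 and 9.82 CPM on day 0, and in TG at 44.3 and 57.5 CPM on day 3, against 62.2 and 52.5 CPM on day 0. The TG days overlap in both genes.

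LOC111899837 stood at 61.4 and 62.3 CPM in PC on day 3, against 227.1 and 455.9 CPM on day 0, and at 52.0 and 57.1 CPM in CL on day 3, against 12.8 and 9.94 CPM on day 0. LOC111906690 stood at 5.81 and 6.90 CPM in PC on day 3, against 43.0 and 61.8 CPM on day 0, and at 5.5 and 5.69 CPM in CL on day 3, against 0.918 and 1.26 CPM on day 0. LOC111909609 stood at 16.2 and 15.7 CPM in PC on day 3, against 48.3 and 63.0 CPM on day 0, and at 18.1 and 15.3 CPM in CL on day 3, against 1.84 and 2.99 CPM on day 0. In TG these 3 genes had log2 changes of -0.06, 0.02 and 0.09, and their day 3 and day 0 libraries overlapped. In TG, LOC111899837 stood at 87.1 and 111.1 CPM on day 3, against 79.2 and 126.7 CPM on day 0. LOC111906690 stood there at 9.14 and 11 CPM on day 3, against 10.2 and 9.62 CPM on day 0, and LOC111909609 at 15.4 and 15.5 CPM on day 3, against 16.4 and 12.6 CPM on day 0. All 6 of these TG day 0 values lay between those of CL and PC on day 0.

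**Figure D4:**
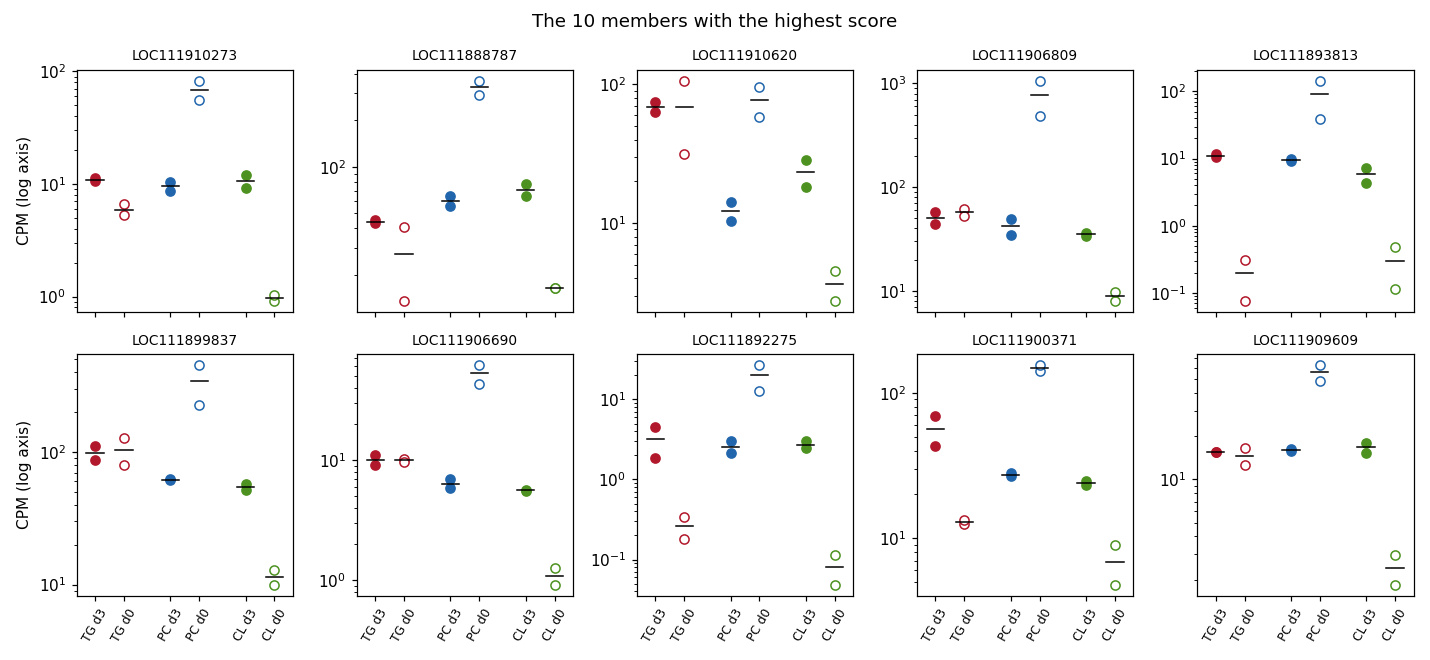
CPM in each library (log axis) of the 10 members with the highest score; filled points are day 3 and open points day 0, red TG, blue PC and green CL, and bars mark the mean of 2 libraries. In each panel the PC day 3 points lie below those of PC day 0 and the CL day 3 points above those of CL day 0, while TG day 0 ranges from the CL level (LOC111893813) to the PC level (LOC111910620).

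The comparison of TG day 3 with TG day 0 asked whether the strongly browning parent followed either cultivar. Of the 100 members, 20 changed in TG at an adjusted p under 0.05 (edgeR quasi-likelihood test, Benjamini-Hochberg over 21757 genes), against 27.4% of all genes tested. At an unadjusted p under 0.05 there were 29, against 39.8%. The members were thus not called more often than genes in general. The 2 TG day 0 libraries differed by a median absolute 0.44 on the log2 scale over the members, against 0.25 over all genes. On day 3 these values were 0.25 and 0.21. A wider spread makes calls harder to reach, and its part in the share called was not tested. Higher on day 3 were 15 members, against 13.6% of all genes, and lower on day 3 were 5, against 13.8%. The TG day 3 libraries lay above both day 0 libraries in 38 members, against 33.6% of all genes, and below them in 14, against 31.6%. The median TG log2 change was 0.11 over the members and 0.01 over all genes, and 78 members changed by less than 2-fold, against 62.7% of all genes. A fit of the TG libraries alone called 9 members, 8 of them higher. The calls over all genes fell as well, to 3922 in that fit, against 5963 with all 12 libraries. The filter was applied anew there and the number of genes tested is not reported, so the 9 members have no share beside them. Leaving out single libraries also moved the member counts, as given in the closing section.

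**Figure D5:**
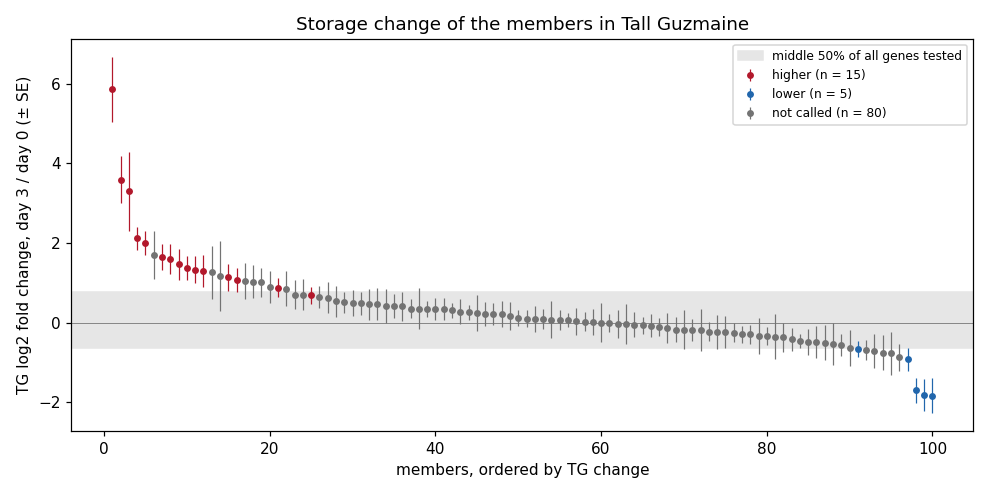
Fitted log2 fold change of each member in TG, day 3 over day 0, with its SE, ordered from highest to lowest; red and blue mark members called higher (n = 15) and lower (n = 5) at an adjusted p under 0.05, and the grey band spans the quartiles of all genes tested. The changes run from 5.85 to -1.83, and 80 members were not called.

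LOC111893813 rose most in TG. It stood in TG at 10.5 and 11.6 CPM on day 3, against 0.0761 and 0.313 CPM on day 0, which are 4 and 14 counts. The log2 change was 5.85 (SE 0.82, adjusted p = 0.0011), and it was 5.12 when TG day 0 replicate 1 was left out and 7.14 when replicate 2 of that group was. CL stood at 7.23 and 4.39 CPM on day 3, against 0.483 and 0.115 CPM on day 0, and PC at 9.20 and 9.79 CPM on day 3, against 38.7 and 144.5 CPM on day 0. On day 0 TG and CL were thus both near 0 at this gene and PC was high.

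LOC111892275 stood in TG at 4.55 and 1.87 CPM on day 3, against 0.343 and 0.179 CPM on day 0, a log2 change of 3.59 (SE 0.59, adjusted p = 0.00197). With TG day 3 replicate 1 left out it was 2.83, and with TG day 0 replicate 1 left out 4.14. CL stood at 2.99 and 2.48 CPM on day 3, against 2 and 4 counts on day 0, and PC at 2.14 and 2.99 CPM on day 3, against 12.8 and 27.1 CPM on day 0. LOC111901704, named after its values were seen, was called as well, in TG at 1.0 and 0.249 CPM on day 3 against 4 and 2 counts on day 0, with a log2 change of 3.30 (SE 0.99, adjusted p = 0.0327). It had 6 and 0 counts in CL on day 0. All 3 genes were barely detected in TG and in CL on day 0, and the sizes of their changes rest on few counts.

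LOC111900371 had the lowest adjusted p. It stood in TG at 68.8 and 43.4 CPM on day 3, against 12.6 and 13.3 CPM on day 0 (log2 change 2.11, SE 0.29, adjusted p = 0.000764). It was called under all 19 alternatives. PC stood at 28.0 and 26.7 CPM on day 3, against 141.4 and 156.0 CPM on day 0, and CL at 24.6 and 23.4 CPM on day 3, against 8.94 and 4.77 CPM on day 0. LOC111920166 stood in TG at 8.71 and 9.81 CPM on day 3, against 1.60 and 3.04 CPM on day 0 (log2 change 2.00, SE 0.30, adjusted p = 0.00117). Leaving out TG day 0 replicate 1 gave 1.60, and leaving out replicate 2 gave 2.54. At this gene TG day 0 was again close to the 1.06 and 1.38 CPM of CL day 0, with 29.1 and 29.0 CPM in PC day 0.

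LOC111876217, one of the closest pair of neighbours, stood in TG at 22.5 and 34.9 CPM on day 3, against 12.2 and 6.09 CPM on day 0 (log2 change 1.65, SE 0.33, adjusted p = 0.00536). Leaving out TG day 0 replicate 2 gave 1.24, and leaving out replicate 1 gave 2.23. Its neighbour LOC111876220 was not called in TG, at 12 and 14.9 CPM on day 3 against 6.07 and 13.5 CPM on day 0. LOC111897210 stood in TG at 11.7 and 18.4 CPM on day 3, against 6.24 and 5.33 CPM on day 0 (log2 change 1.38), and lost its call without TG day 3 replicate 2 (adjusted p = 0.0638).

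LOC111880210 stood in TG at 8.14 and 8.25 CPM on day 3, against 3.73 and 1.66 CPM on day 0 (log2 change 1.60). LOC111910288 stood in TG at 17.3 and 18.0 CPM on day 3, against 7.65 and 6.36 CPM on day 0 (log2 change 1.33). LOC111910273, described above, had a log2 change of 0.88. Their adjusted p-values were 0.0125, 0.0158 and 0.0223, and each lost its call when TG day 0 replicate 2 was left out (0.0518, 0.0736 and 0.104) and when TG day 3 replicate 1 was (0.0543, 0.0601 and 0.0759). Without TG day 3 replicate 2, LOC111910288 and LOC111910273 also missed the threshold, with adjusted p-values of 0.0544 and 0.0835. The other 6 members called higher in TG, LOC111901704 among them, had log2 changes of 0.68 to 3.30.

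The 5 members that fell in TG followed the direction of PC. LOC111884890 stood in TG at 55.6 and 52.9 CPM on day 3, against 242.4 and 109.9 CPM on day 0 (log2 change -1.70, SE 0.31, adjusted p = 0.00357). PC stood at 41.8 and 44.0 CPM on day 3, against 563.9 and 819.4 CPM on day 0, and CL at 61.5 and 59.8 CPM on day 3, against 36.6 and 37.5 CPM on day 0. Leaving out TG day 0 replicate 1 gave -1.02, leaving out replicate 2 gave -2.15, and the gene was called in both cases. It had the smallest CL change of all members, 1.64-fold.

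LOC111896520, with the levels given above, had a TG log2 change of -1.83 (SE 0.40, adjusted p = 0.00802). That change was -0.90 without TG day 0 replicate 2, where the call was lost (adjusted p = 0.052), as it was without TG day 3 replicate 1 (adjusted p = 0.0791). The pseudogene LOC111914150 stood in TG at 13.7 and 22.2 CPM on day 3, against 91.9 and 35.6 CPM on day 0 (log2 change -1.83, SE 0.44, adjusted p = 0.0133). Its change was -0.99 without TG day 0 replicate 1 (adjusted p = 0.0937) and -1.50 without TG day 3 replicate 1 (adjusted p = 0.12). Reads of a pseudogene cannot be told apart here from those of a similar gene, and the handling of multi-mapping reads is not known for any member.

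LOC111901974 stood in TG at 6.52 and 9.48 CPM on day 3, against 11.9 and 18.4 CPM on day 0, and LOC111876611 at 25.9 and 28.3 CPM on day 3, against 35.4 and 50.3 CPM on day 0. Their log2 changes were -0.92 (adjusted p = 0.036) and -0.66 (adjusted p = 0.0376). Both were called under 10 of 19 alternatives and missed the threshold without any one of TG day 0 replicate 2, TG day 3 replicate 1, the PC day 3 libraries or the CL day 3 libraries, with adjusted p-values up to 0.258. Without TG day 0 replicate 2 the changes were -0.57 and -0.37, while without single PC or CL day 3 libraries they stayed at -0.92 to -0.90 and -0.66 to -0.64. Among the members that fell, LOC111884890 alone was called under all 19 alternatives.

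The position of TG on day 0 differed between these classes. The 15 members that rose in TG had a median position of 0.20 between CL at 0 and PC at 1, and 1 of them, LOC111876217, lay below both CL libraries. The 5 that fell had a median position of 0.68, and the 80 that were not called had 0.45. The TG day 0 libraries enter both the position and the change, so these values are not independent of each other.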

How the data were processed

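Paired-end Illumina RNA-seq was done on midribs of 18 lettuce samples, per the labels' protocols. Each deposited file gives the authors' read counts for 64021 rows named by NCBI GeneID. Per the submitters' processing notes, STAR 2.4.0i, featureCounts, Trim Galore, FastQC, DESeq2 and R 3.6.1 were used, with no roles stated. Build, annotation, strand setting and multi-mapping rule are not known from these sources. In the day 0 and day 3 columns 68.4% to 74.6% of counts of 100 or more were even, as when both mates of a pair are counted, so independent fragments are fewer than counts. Rows were summed per GeneID; 7574 GeneIDs had more than one row, but no member did.

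Day 2 values, as deposited, were taken as a score and left out of all tests. In rows with a day 0 and day 3 mean of at least 100, 98.9% to 99.8% of the values lay within 1 count of a constant added to that mean and multiplied by a factor of 0.99 to 1.05; of the members, 97 to 100 per column did so.

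The 12 day 0 and day 3 libraries were fitted with edgeR 4.0.16 in R 4.3.3: filterByExpr by group (21757 genes kept), TMM, a mean for each of 6 groups, robust quasi-likelihood F-test, Benjamini-Hochberg over all genes, threshold 0.05. SE is the log2 change divided by the root of F. DESeq2 1.42.0 served as an alternative. Differences between cultivars are means of log2(CPM + 1), a scale that understates changes of low genes. The members, lists and tests were chosen with earlier results of these data known. Genes named are the 10 highest scores, up to 8 members called in TG in each direction by lowest p, and the 3 genes on either side of the score limit, plus those said to be chosen after their values were seen or to belong to a small class. Product-name lists and cell type markers had been fixed but could not be applied, since the gene table, which holds 40695 of the 46150 GeneIDs, gives no product names. Its coordinates were used to order the genes and are not printed, and no sequences were used.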

Additional observations from a re-analysis of the deposited data

Results flagged for a closer look

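Each of the 20 members called in TG is listed because its TG change ran against that of PC or of CL. The selection fixes this, since every member was chosen to be lower in PC and higher in CL after storage. For the same reason the difference between the cultivars' changes was not tested, and the values are TG log2 changes between day 3 and day 0. TG rose where PC was lower after storage at LOC111893813 (5.85), LOC111892275 (3.59), LOC111901704 (3.30), LOC111900371 (2.11), LOC111920166 (2.00), LOC111876217 (1.65), LOC111880210 (1.60) and LOC111884070 (1.46). The same held at LOC111897210 (1.38), LOC111910288 (1.33), LOC111900428 (1.30), LOC111887118 (1.14), LOC111886222 (1.07), LOC111910273 (0.88) and LOC111890759 (0.68). TG fell where CL was higher after storage at LOC111896520 (-1.83), LOC111914150 (-1.83), LOC111884890 (-1.70), LOC111901974 (-0.92) and LOC111876611 (-0.66).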

How the results depend on the processing

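The member list depends on its scale: 60 members stayed among the 100 highest scores with a pseudocount of 0.1, 81 with TMM-adjusted CPM, and 52 to 96 without any one PC or CL library. The number of members called in TG was 18 to 24 under the other scalings, DESeq2, no filter and both replicate blocks. A fit of the TG libraries only called 3922 genes and 9 members, 8 higher and 1 lower. Without a scaling factor 3 members were called lower, and the median CL change was 1.88 in place of 1.55. Leaving out single libraries gave 2638 to 6441 genes and 7 to 24 members, 6 to 18 higher and 1 to 8 lower. The lowest of these counts came without TG day 3 replicate 1. Members called higher were 9 without TG day 3 replicate 2. Members called lower were 8 when TG day 0 replicate 1 was left out, and 3 when replicate 2 of that group or any one PC or CL day 3 library was. The median changes were 0.05 to 0.30 in TG, -2.04 to -1.46 in PC and 1.52 to 1.66 in CL. TG day 0 lay between PC and CL in 80 to 87 members without single libraries. Leaving out a library can only loosen this requirement, so the count could not fall and this range is no check on it. On column totals, which set PC day 0 higher and CL day 0 lower than TMM does, it was 88. The cause of the other shifts was not tested. Replicate numbers did not pair the TG libraries (correlation of deviations -0.15). With a replicate block 5583 genes and 21 members were called, and with crossed numbers 5484 and 19. Of 380 single-gene values, 35 lost their call, 1 gained one and none of the called changes reversed. With 2 libraries per group, small changes could not be resolved.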
